A study of Caenorhabditis elegans with 2 samples.

Results

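The regions described here were candidate binding regions of the transcription factor ZIP-4 that lay beside transfer RNA (tRNA) genes of Caenorhabditis elegans. They were chosen from the authors' list of 30000 candidate regions, made from the reads of both replicates together, as those whose summit (the base of strongest signal) lay within 200 bp of a gene annotated as tRNA. This gave 290 regions, whose nearest genes were 262 different tRNA genes. The chromatin came from whole larvae of strain OP590, in which the unc-119(tm4063) mutant carries wgIs590, a transgene of zip-4::TY1::EGFP::3xFLAG with a rescuing unc-119(+), and so expresses ZIP-4 with a tag at its C terminus in addition to the worm's own zip-4. The larvae were of mixed sex, at the first larval stage (L1), labelled 6 hours, and had been starved after bleaching, and the sonicated chromatin was precipitated with an anti-GFP antibody according to the sample descriptions. There were 2 biological replicates in 1 group, and no untagged strain, fed larvae or other stage was analysed here. The transgene is 1 inserted line with extra zip-4 copies, and whole larvae mix all tissues, so a region cannot be given to a cell type.

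Of the 290 regions, 61 were also in the authors' optimal list, the regions kept by a test of reproducibility between replicates, and 229 were not. The optimal regions made up 21.0% of the regions at tRNA genes (95% Clopper-Pearson interval 16.5 to 26.2), whereas 4.30% of all pooled candidate regions were optimal. Intervals here cover counting over regions or genes only, and since neighbouring regions share libraries they are not replicates, so no p-values are given. The optimal regions were exactly those with the highest signal value, the authors' strength per region, on a scale the sources used here do not state. The lowest signal value in the optimal list was 79.97 and the highest outside it 79.89, so the division into optimal and other regions is a division by signal, and signal differences between them are a description.

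tRNA genes are transcribed by RNA polymerase III from a promoter inside the gene. Its A and B boxes, which also encode conserved parts of the tRNA, are bound by the factor TFIIIC, which places TFIIIB just before the gene, and TFIIIB recruits the polymerase. tRNA genes occur as many near-identical copies scattered over the genome, in introns, between genes and in clusters. ZIP-4 belongs to the basic leucine zipper (bZIP) family, whose members bind short DNA words as dimers in promoters and enhancers of protein-coding genes.

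The 6 sequences that follow show where summits lay, and were chosen among regions with the gene's B box word in full. Each begins 100 bases before the gene and ends with its last base, written 5′ to 3′ on the gene's strand from the RefSeq genome WBcel235. The single capital marks the summit base and the run of capitals marks GGTTCGA, the core of the B box. K02A4.t1 (serine) covered chrX:12889840-12890021 (+ strand) and R11.t1 (tyrosine, the first gene of a cluster) covered chrX:16209769-16209952 (- strand). K11H12.t1, the gene for selenocysteine tRNA, covered chrIV:658081-658266 (+ strand), and C04A11.t1 (leucine) covered chrX:13665455-13665673 (+ strand). F15G9.t1 (alanine), an optimal region with its summit inside the gene, covered chrX:9743489-9743660 (+ strand). R04D3.t2 (valine), among the strongest regions outside the optimal list, covered chrX:13306934-13307106 (+ strand).
K02A4.t1: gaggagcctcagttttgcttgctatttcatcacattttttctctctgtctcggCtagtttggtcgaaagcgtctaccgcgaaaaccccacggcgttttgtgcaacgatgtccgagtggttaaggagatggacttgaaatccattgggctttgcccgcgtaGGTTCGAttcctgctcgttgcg
R11.t1: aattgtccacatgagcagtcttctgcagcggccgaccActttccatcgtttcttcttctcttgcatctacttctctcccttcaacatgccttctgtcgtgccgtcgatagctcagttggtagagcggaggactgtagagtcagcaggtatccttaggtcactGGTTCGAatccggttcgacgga
K11H12.t1: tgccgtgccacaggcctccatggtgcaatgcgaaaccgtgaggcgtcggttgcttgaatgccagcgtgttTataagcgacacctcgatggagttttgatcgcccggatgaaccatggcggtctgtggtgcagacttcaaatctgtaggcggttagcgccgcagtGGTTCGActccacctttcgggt
C04A11.t1: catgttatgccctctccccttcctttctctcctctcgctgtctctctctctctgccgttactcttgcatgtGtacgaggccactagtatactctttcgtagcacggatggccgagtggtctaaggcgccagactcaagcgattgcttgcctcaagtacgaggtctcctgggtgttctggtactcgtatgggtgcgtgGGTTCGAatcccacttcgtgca
F15G9.t1: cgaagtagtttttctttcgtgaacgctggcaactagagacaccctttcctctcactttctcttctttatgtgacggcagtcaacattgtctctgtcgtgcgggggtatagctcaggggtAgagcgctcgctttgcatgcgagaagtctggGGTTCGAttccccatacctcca
R04D3.t2: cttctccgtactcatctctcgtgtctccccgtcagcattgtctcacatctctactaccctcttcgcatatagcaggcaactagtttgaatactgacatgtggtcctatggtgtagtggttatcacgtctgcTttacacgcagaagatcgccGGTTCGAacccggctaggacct
In the first 4 the summit lay 47, 63, 30 and 29 bases before the gene, ahead of the transcribed part. In F15G9.t1 and R04D3.t2 it lay 19 and 31 bases after the first base of the gene, before the B box.

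The strongest optimal regions at tRNA genes lay upstream of the gene they were assigned to, mostly on the X chromosome. M02F4.t2, a glutamate tRNA gene (chrX:3035976-3036047, between genes), had the highest signal value at 248.5, with 168.9 in replicate 1 and 80.6 in replicate 2. F41D9.t3, an asparagine tRNA gene in an intron of sulp-3, had a signal value of 244.2, with 161.3 in replicate 1 and 79.0 in replicate 2. Both summits stood about as far from the gene, at -44 and -46 bp from its first base. F47G6.t1 (arginine, in an intron of spe-15 on chromosome I) had a signal value of 240.5, with 167.0 and 76.1 in replicates 1 and 2. C28G1.t1 (glutamate, X, overlapping an exon of C28G1.2) had 227.3, with 139.0 and 86.2. Pooled values and replicate 1 put the first 3 above C28G1.t1, and replicate 2 put C28G1.t1 above all 3.

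The next regions belonged to genes for proline, serine, glutamine and tyrosine tRNAs. F46G11.t2 (proline, X) had a signal value of 223.6, with 134.8 in replicate 1 and 89.2 in replicate 2, and C53C7.t2 (serine, X) had 216.2, with 146.9 and 72.0. K02A4.t1, whose sequence occurs once among the tRNA genes, had 209.1, with 129.4 in replicate 1 and 75.6 in replicate 2. R04A9.t1 (glutamine, in an intron of ZK1193.2 on X) had 191.3, with 148.4 and 50.5, the widest split between replicates among the 10 strongest. R11.t1 had 187.7, with 121.6 and 65.6, and W09D6.t1 (proline, in an intron of rsa-2 on chromosome III) had 182.8, with 117.7 and 62.0. All 10 had a partner summit within 100 bp in both replicate lists, and 8 of the 10 lay on X. The eleventh was the selenocysteine gene K11H12.t1 on chromosome IV, with a signal value of 166.5, 121.6 in replicate 1 and 53.6 in replicate 2.

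The tRNA regions did not reach the top of the list. None of the 200 regions with the highest signal lay at a tRNA gene, which allows a share of up to 1.83%, and the strongest tRNA region had rank 248. Among ranks 201 to 500, 11 regions (3.67%) lay at tRNA genes, among ranks 501 to 900 it was 21 (5.25%), and in the weakest part of the optimal list, after rank 900, it was 29 (7.44%). The next 710 regions, just outside the optimal list, held 44 (6.20%), close to the share just inside it. The share then fell to 1.93% at ranks 2001 to 5000 and 0.350% at ranks 20001 to 30000.

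**Figure D1:**
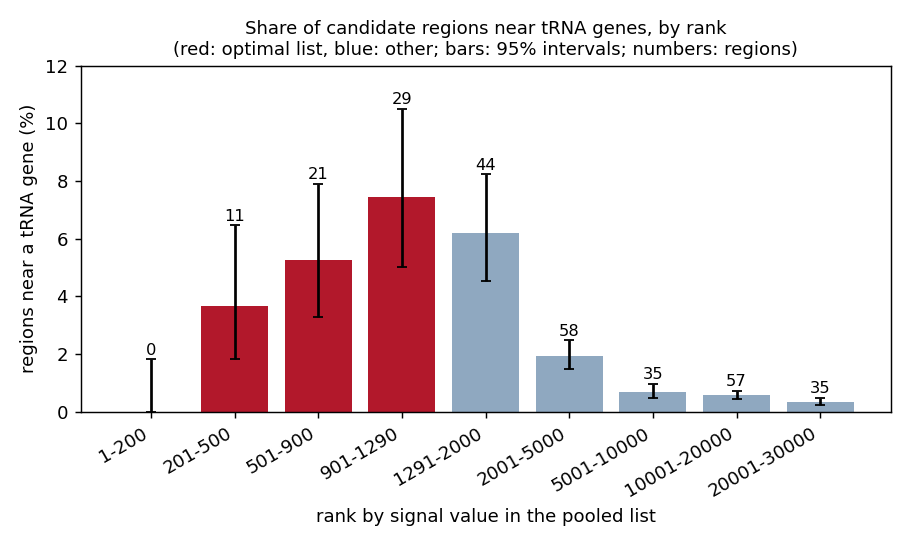
Share of candidate regions lying within 200 bp of a tRNA gene (percent, vertical axis) in 9 bins of rank by pooled signal value (horizontal axis), red for bins of the optimal list and blue for the rest; error bars are 95% Clopper-Pearson intervals and the numbers count the tRNA regions. The share was 0 in the first 200 ranks, highest at 7.44% in the last bin of the optimal list, and 6.20% in the bin after the end of the optimal list.

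Over all tRNA regions the median pooled signal value was 106.4 in optimal regions, with a range of 80.2 to 248.5, and 43.1 in the others, with a range of 26.8 to 78.9. The optimal tRNA regions were weaker than the optimal list as a whole, whose median was 133.6, and the other tRNA regions were above the median of all pooled regions, which was 34.3. The authors' q-value was 0.05 or less in all 61 optimal tRNA regions and in 16 of the 229 others (6.99%). Over all 30000 regions, which include the optimal list, it was 1461 (4.87%). No share over the regions outside the optimal list is given here, so the 229 have no like set beside them. The weakest optimal tRNA region stood at F29C4.t1 (arginine, in an intron of col-99). Its signal value was 80.2, with 60.4 in replicate 1 and 21.0 in replicate 2. The strongest tRNA region outside the list stood at rte-4, a glutamate tRNA gene, with 78.9, and 47.4 and 27.9 in replicates 1 and 2. The 4 that followed were at K06A4.t1 (78.1), F44A2.t1 (77.5), R04D3.t2 (77.1) and F52H2.t2 (75.9). Of these, only the one at F44A2.t1 had no partner in replicate 2.

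Regions at genes for other short structured RNAs were optimal still more often. Near small nucleolar RNA (snoRNA) genes, whose products guide the modification of ribosomal RNA, 64 of 156 regions were optimal (41.0%, interval 33.2 to 49.2). Near small nuclear RNA (snRNA) genes, whose products form the spliceosome, it was 29 of 56 (51.8%, interval 38.0 to 65.3), with the best rank at 11. The tRNA share of 21.0% lay below both intervals. Counted over genes the difference was smaller: 62 of 346 snoRNA genes (17.9%, interval 14.0 to 22.4) and 21 of 129 snRNA genes (16.3%, interval 10.4 to 23.8) had an optimal region, and any candidate region lay at 42.5% of snoRNA and 31.0% of snRNA genes. Annotated tRNA pseudogenes, copies that keep tRNA-like sequence, had 2 optimal regions of 24 (8.33%, interval 1.03 to 27.0).

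Of the 612 nuclear tRNA genes, 68 (11.1%, interval 8.73 to 13.9) had an optimal region within 200 bp, and 284 (46.4%, interval 42.4 to 50.4) had any candidate region. Of 209 tRNA pseudogenes, 2 (0.957%, interval 0.116 to 3.41) had an optimal region and 23 (11.0%, interval 7.11 to 16.1) a candidate region. The intervals of genes and pseudogenes did not overlap in either count, but no share over genes of all kinds is given here. These counts therefore do not show whether pseudogenes differ from other loci. The B box core GGTTCGA was in 64.5% of the 612 genes and in 67.5% of the pseudogenes, so the pseudogenes as annotated had not lost that word. The pooled list held 0 mitochondrial regions, so none could lie at the 22 mitochondrial tRNA genes.

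The X chromosome carried 45.1% of nuclear tRNA genes, and 139 of the 290 tRNA regions lay on it. On X, 34 of 139 tRNA regions were optimal (24.5%, interval 17.6 to 32.5), and on the autosomes 27 of 151 (17.9%, interval 12.1 to 24.9), with overlapping intervals. Counted over genes, 39 of 276 on X (14.1%, interval 10.2 to 18.8) and 29 of 336 on autosomes (8.63%, interval 5.86 to 12.2) had an optimal region, and these intervals also overlapped. Chromosome III stood level with X, with 9 of 64 genes (14.1%), while chromosome I had the fewest, with 3 of 66 (4.55%). In each replicate's own list, with as many of its strongest regions taken as the optimal list holds, the split depended on the library. In replicate 2 it was 31 of 113 tRNA regions on X (27.4%, interval 19.5 to 36.6) and 13 of 133 on autosomes (9.77%, interval 5.31 to 16.1), without overlap of the intervals. In replicate 1 it was 32 of 131 on X (24.4%, interval 17.3 to 32.7) and 29 of 153 on autosomes (19.0%, interval 13.1 to 26.1). The matching shares over all regions of each replicate's list are not given here, so the replicate splits have no background beside them. X as a whole held 18.7% of the optimal list and 20.3% of all pooled candidate regions. tRNA regions were 34 of the 241 optimal regions on X (14.1%, interval 9.97 to 19.2) and 27 of the 1049 on autosomes (2.57%, interval 1.70 to 3.72). Outside the optimal list they were 1.79% of the X regions and 0.543% of the autosomal ones.

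**Figure D2:**
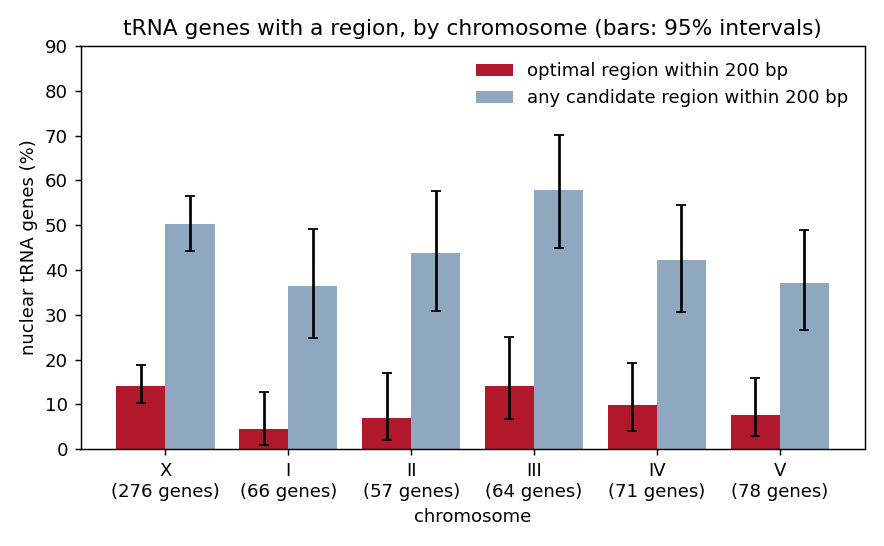
Percent of the nuclear tRNA genes of each chromosome (vertical axis) with an optimal region (red) or any candidate region (blue) within 200 bp, with 95% Clopper-Pearson intervals and the number of genes under each chromosome. X and chromosome III both stand at 14.1% for optimal regions, and the intervals of the autosomes overlap that of X.

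Regions at clustered genes were not optimal more often than those at isolated ones. A gene was counted as clustered where another tRNA gene lay within 1000 bp. Of 78 regions at clustered genes 12 were optimal (15.4%, interval 8.21 to 25.3), against 49 of 212 at isolated genes (23.1%, interval 17.6 to 29.4). On X the shares were 9 of 46 clustered (19.6%) and 25 of 93 isolated (26.9%), and on autosomes 3 of 32 clustered (9.38%) and 24 of 119 isolated (20.2%). The intervals overlapped, and the order depended on the threshold: with only the 645 strongest regions of the optimal list it turned, to 10.3% for clustered and 4.72% for isolated genes. With clusters defined by gaps of 500 bp the shares were 20.8% for clustered and 21.1% for isolated genes, and with gaps of 5000 bp 15.7% and 24.9%. Counted over genes, 19 of 236 clustered (8.05%, interval 4.92 to 12.3) and 49 of 376 isolated genes (13.0%, interval 9.80 to 16.9) had an optimal region.

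No cluster held more than 1 optimal region. The 4 tyrosine genes R11.t1 to R11.t4 (chrX:16208263-16209852) had 1 region, which was optimal and lay before R11.t1, the only gene of the 4 within 200 bp of it. The 6 genes F22F1.t2 to F22F1.t7 (chrX:8154445-8156707), which encode serine, aspartate, methionine and isoleucine tRNAs, had 3 regions and none was optimal. Their signal values were 74.4 at F22F1.t5, 63.1 at F22F1.t7 and 60.9 at F22F1.t6, all under the lowest signal in the optimal list. The 6 histidine genes F28H6.t2 to F28H6.t7 had 1 region, also not optimal.

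The summits of optimal regions lay before the gene more often than those of the others. Measured along the gene from its first base, the median summit position was -30 bp in optimal regions (quartiles -43 and 9, interval of the median -34 to -14) and 7 bp in the others (quartiles -34 and 67, interval -16 to 31). The summit was upstream of the gene in 67.2% of optimal regions (interval 54.0 to 78.7) and 48.5% of the others (interval 41.8 to 55.1), and these intervals overlapped slightly. It lay between 60 and 20 bp upstream in 28 of 61 optimal regions (45.9%) and in 59 of 229 others (25.8%). Downstream summits were rare in the optimal list, at 6.56%, against 21.8% of the others. By the counts of 36-base words given further on, sequence before these genes was mostly unique in the genome and sequence inside them mostly not. Within 100 bp of the summit, the median share of unique words was 81.6% for upstream summits. It was 71.1% for summits inside the gene and 100% for downstream ones. The part of uniqueness in summit position was not tested. No optimal summit lay more than 100 bp upstream, which allows up to 5.87%, against 20 of 229 others (8.73%).

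Position also differed by signal within the optimal list, mainly between the 20 strongest tRNA regions and the rest. All 10 strongest tRNA regions had the summit upstream, at a median of -55 bp, and 8 of the next 10 did. In 4 of the 10 strongest the summit lay between divergent tRNA genes, where any position in the gap is upstream of both. Among orders 21 to 40 it was 11 of 20, among 41 to 61 it was 12 of 21, and among the 44 just outside the list 21 of 44. Read the other way, 41 of 152 regions with an upstream summit were optimal (27.0%, interval 20.1 to 34.8), 16 of 84 with a summit inside the gene (19.0%) and 4 of 54 with a downstream one (7.41%, interval 2.06 to 17.9). The replicate lists, each with its own summits, had the same order: in replicate 1 the 61 tRNA regions within its strongest part, again as many regions as the optimal list holds, were upstream in 59.0%, against 43.5% of the rest. In replicate 2 it was 63.6% of 44 regions, against 46.5% of the rest. Median positions in replicate 1 were -15 bp (interval -30 to 12) in the strongest part and 10 bp (interval -2 to 35) in the rest. In replicate 2 they were -17 bp (interval -29 to 0) and 11 bp (interval -7 to 37). The intervals overlapped in both, and the pooled list was made from the same 2 libraries.

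**Figure D3:**
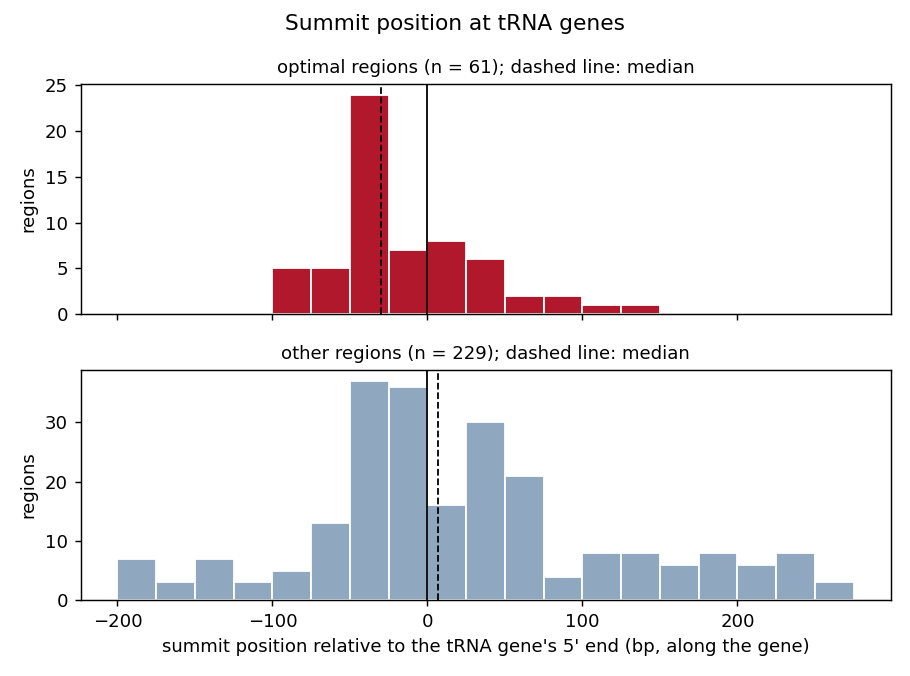
Number of regions (vertical axis) by summit position in bp from the first base of the nearest tRNA gene, along the gene (horizontal axis, negative before the gene), for the 61 optimal regions above and the 229 others below; dashed lines are medians and the solid line is the gene's first base. The optimal regions peak just before the gene with a median of -30 bp, and the others spread to both sides with a median of 7 bp.

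Some summits had tRNA genes on both sides. 27 regions had more than 1 tRNA gene within 200 bp, and 7 of them were optimal. In 4 of these 7 the summit lay between divergently transcribed genes: M02F4.t2 and M02F4.t1, F46G11.t2 and F46G11.t1, C53C7.t2 and C53C7.t1, and W09D6.t2 and W09D6.t1. All 4 were among the 10 strongest tRNA regions. Of the 20 others with more than 1 gene, 9 had divergent genes, with the summit between them in 6, 7 had convergent and 4 had tandem genes. Each of these regions could belong to either gene. It was counted at the nearest one in counts of regions and at every tRNA gene within 200 bp in counts of genes.

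Of regions at tRNA genes in introns of protein-coding genes 31 of 140 were optimal (22.1%), of those between genes 28 of 143 (19.6%), and of those at genes overlapping an exon 2 of 7 (28.6%). On X the share was 24.1% in introns and 23.8% between genes, and on autosomes it was 20.9% in introns (18 of 86) and 13.6% between genes (8 of 59). Promoters of protein-coding genes were taken as 1000 bp before to 200 bp after the start. Of tRNA regions that also lay in one, 16 of 67 were optimal (23.9%), against 45 of 223 outside such promoters (20.2%). Only 1 of the 290 regions, at M01E5.t1 (lysine), also lay within 200 bp of an snRNA or snoRNA gene.

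The optimal regions were spread over most amino acids, and 11.1% of all nuclear tRNA genes had one. Proline had optimal regions at 8 of 42 genes, arginine at 7 of 44, lysine at 6 of 46, and alanine, glutamate and leucine at 5 each, of 34, 41 and 39 genes. These counts include each gene of a pair that shares a region, as several proline genes do. Counted by the nearest gene, 4 optimal regions were at proline genes, 7 at arginine and 6 at lysine genes. The single selenocysteine gene, whose tRNA reads UGA codons in selenoprotein messages, had an optimal region too. None of the 31 valine genes had an optimal region, which allows a share of up to 11.2% and so does not set valine apart from all tRNA genes, though candidate regions lay at 11 of them. The strongest of these had signal values of 77.1 at R04D3.t2, 75.8 at Y7A9D.t3, 74.5 at F22G12.t1, 73.9 at C52G5.t1 and 72.2 at T01B4.t1. All 5 lay just under the lowest signal of the optimal list. sup-5, a tryptophan tRNA gene known for its amber suppressor alleles, had an optimal region with a signal value of 109.3, 60.4 in replicate 1 and 45.3 in replicate 2.

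**Figure D4:**
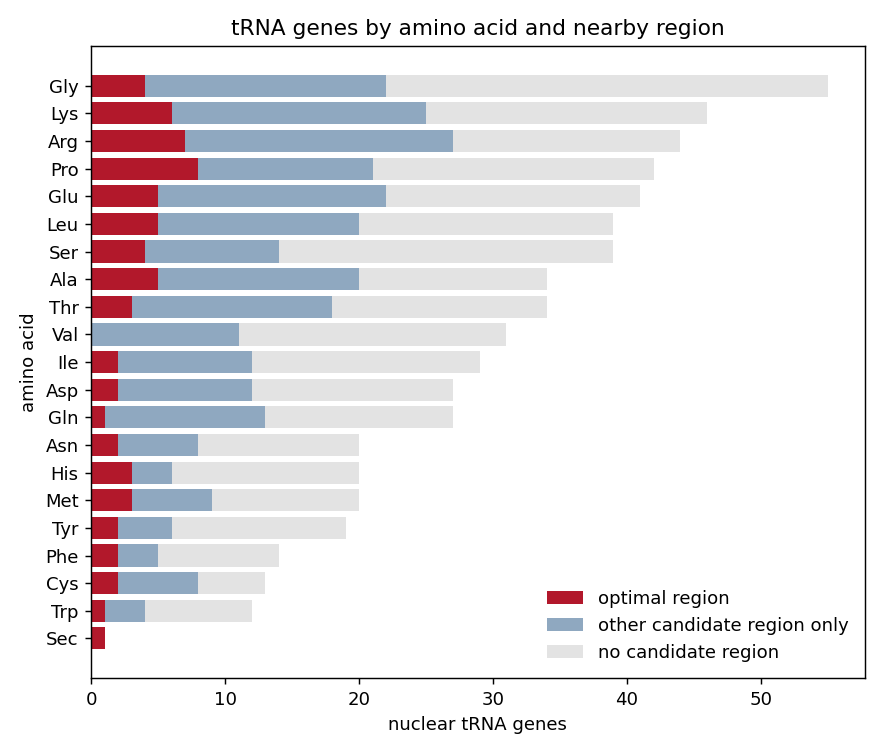
Number of nuclear tRNA genes (horizontal axis) for each amino acid (vertical axis), split into genes with an optimal region within 200 bp (red), with another candidate region only (blue) and with neither (grey). Proline has the most genes with an optimal region, 8 of 42, and valine has 0 of 31. Genes that share a region are each counted, and 4 optimal regions had a proline gene as the nearest.

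Genes of identical sequence differed in whether they had a region. The 612 genes had 200 distinct sequences, of which 143 occurred once. There were 57 families of identical genes with 469 members, and 32 of the families had at least 1 optimal region. In 31 of these 32 some copies had an optimal region and others did not. Only 11.1% of all nuclear tRNA genes had an optimal region, so a mixed family was the likely outcome from that share alone. The proline family of 24 copies had the most, 6: T23F1.t2, ZK899.t1, F46G11.t1, F46G11.t2, W09D6.t1 and W09D6.t2, of which the last 4 share 2 regions. The glycine family of 29 copies had 2, the lysine family of 25 copies had 4, and a valine family of 12 copies had 7 genes with a candidate region and 0 with an optimal one. By copy number, 8 of 52 regions at single-copy genes were optimal (15.4%), 8 of 47 at genes of 2 to 5 copies (17.0%), 17 of 46 at 6 to 10 copies (37.0%, interval 23.2 to 52.5) and 28 of 145 at more than 10 copies (19.3%), with no steady trend.

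Signal differed widely among the 24 identical proline genes. The region between F46G11.t2 and F46G11.t1 had a signal value of 223.6 and that between W09D6.t1 and W09D6.t2 had 182.8. ZK899.t1 had 99.6, with 75.5 in replicate 1 and 26.6 in replicate 2, and T23F1.t2 shared the region of its lysine neighbour T23F1.t1, at 106.4. Outside the optimal list, C16B8.t1 had 35.5, with 25.7 in replicate 1 and 11.8 in replicate 2. The values at C48C5.t3, H06A10.t1, F23D12.t1, Y7A5A.t2 and F02H6.t1 ran between 27.7 and 34.3, and F23D12.t2 and Y7A5A.t3 shared the regions of their neighbours. The other 10 copies had no candidate region. The sequences at W09D6.t1, chrIII:11066927-11067098 (+ strand), and C16B8.t1, chrX:3969456-3969627 (+ strand), are shown since the genes are the same and the 100 bases before them are not. They are written as the sequences above, and have no GTTCGA to mark, so the single capital is the summit, 53 and 38 bases before the gene.
W09D6.t1: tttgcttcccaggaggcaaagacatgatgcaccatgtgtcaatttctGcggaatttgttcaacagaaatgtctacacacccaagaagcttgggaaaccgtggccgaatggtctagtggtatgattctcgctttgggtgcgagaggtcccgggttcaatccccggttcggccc
C16B8.t1: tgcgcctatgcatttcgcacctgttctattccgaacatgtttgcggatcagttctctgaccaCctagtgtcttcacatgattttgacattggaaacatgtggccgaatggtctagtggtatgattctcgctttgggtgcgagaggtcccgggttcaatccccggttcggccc
C16B8.t2, another proline gene of the same cluster, has a sequence of its own. Its region was optimal, with a signal value of 125.0, 79.5 in replicate 1 and 41.5 in replicate 2.

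The sources used here do not say how reads that match several places were treated. The uniqueness of the sequence around each summit was therefore measured. Of the 36-base words lying wholly within 100 bp of the summit, a median of 77.7% occurred once in the genome in optimal regions and 79.5% in the others, against 100% in the optimal list as a whole and in all pooled regions. By order of signal, the median was 94.0% in the 10 strongest tRNA regions, whose summits were all upstream, and 81.0% in the next 10. It was 72.0% at orders 21 to 40, 77.1% at 41 to 61, 75.9% at 62 to 105 and 80.7% at 106 to 290. Inside the gene itself no 36-base word was unique at 59 of 68 genes with an optimal region, 177 of 216 with another candidate region only and 237 of 328 with none, so the median was 0% in each of these groups. In the 100 bases before the gene every word was unique at 68 of 68 genes with an optimal region, 213 of 216 with another candidate region only and 284 of 328 with none. Whether reads of repeated sequence moved summits or signal values was not tested.

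In replicate support, the optimal tRNA regions resembled the whole optimal list. A summit within 100 bp was present in both replicate lists for 57 of 61 optimal tRNA regions (93.4%, interval 84.1 to 98.2) and for 90 of 229 others (39.3%, interval 32.9 to 46.0), against 94.4% of all optimal regions and 21.4% of all regions outside the list. The optimal list was made from this agreement, so these shares are a description. The 4 optimal regions without a partner in replicate 2 were at ZK678.t1, F08G5.t1, C14B9.t2 and F14B8.t1.

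By rank the support was less even. A partner among the strongest regions of replicate 1, as many as the optimal list holds, was found for 52 of 61 optimal tRNA regions (85.2%), and among those of replicate 2 for 37 of 61 (60.7%), against 88.3% and 76.7% for all optimal regions. In replicate 2 it was 25 of 34 on X (73.5%, interval 55.6 to 87.1) and 12 of 27 on autosomes (44.4%, interval 25.5 to 64.7). In replicate 1 it was 28 of 34 on X (82.4%, interval 65.5 to 93.2) and 24 of 27 on autosomes (88.9%, interval 70.8 to 97.6). The intervals overlapped in both replicates, and the matching shares over all optimal regions of X and of the autosomes are not given here. The lowest rank in replicate 1 belonged to F09B9.t1 (arginine), with rank 2609 and a signal value of 38.8, while in replicate 2 it had rank 746 and 43.2. The lowest rank in replicate 2 belonged to F15B9.t1 (alanine), with rank 12388 and a signal value of 16.3, while in replicate 1 it had rank 795 and 76.9.

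Median signal was 69.8 in optimal and 31.9 in other tRNA regions in replicate 1, and 37.8 in optimal and 19.2 in others in replicate 2. The median ratio of replicate 1 to replicate 2 was 1.91 in the 57 optimal tRNA regions with both values, 1.69 in the 90 others and 1.89 in the whole optimal list. Across regions, the Spearman correlation of the replicates' signal was 0.61 in the 57 optimal and 0.42 in the 90 other tRNA regions, and 0.79 in the whole optimal list. These are correlations over regions of the same 2 libraries and shared control, and the tRNA regions span a narrower range of signal than the whole list.

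**Figure D5:**
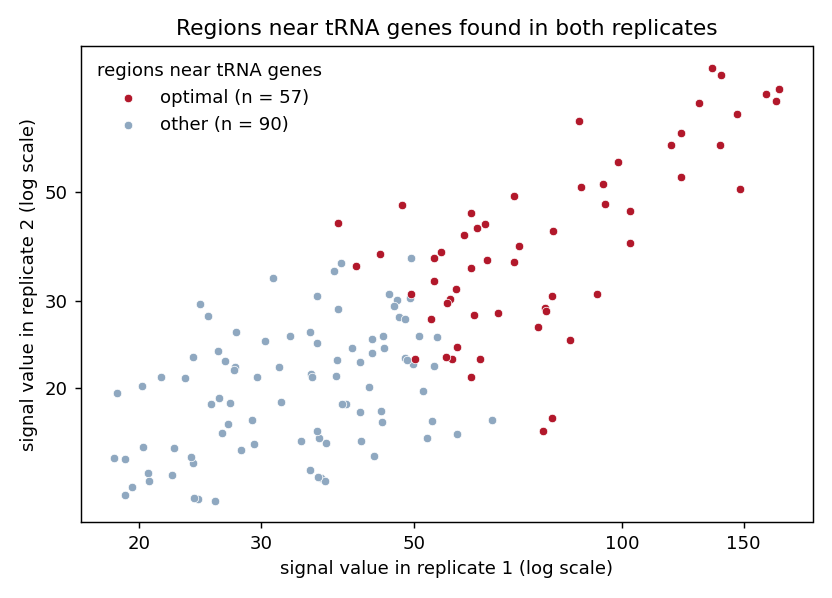
Signal value in replicate 2 (vertical, log scale) against replicate 1 (horizontal, log scale) for regions at tRNA genes with a summit within 100 bp in both lists, red for the 57 optimal regions and blue for the 90 others. Most points lie at a higher value in replicate 1, with a median ratio of 1.91 in optimal regions and 1.69 in the others.

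The sequences under tRNA summits did not hold the word found under many other optimal regions. The search covered 101 bases centred on the summit and both strands. TTGCGAAA was in 0 of 61 optimal tRNA regions, which allows up to 5.87%, and in 0 of 229 others, which allows up to 1.60%. Within 100 bp it was in 0 of 61 optimal and 1 of 229 other tRNA regions, against 20.5% of all optimal and 2.73% of all pooled regions. Within 50 bp it was in 217 regions of the whole optimal list (16.8%) and in 1.80% of all pooled regions. The sets were not matched for signal, and the median signal of the whole optimal list was above that of its tRNA regions. All pooled regions include the optimal list, here and wherever words are compared. No share of windows outside that list is given, so the other tRNA regions have no like set beside them. TTGCNNAA, which includes it, was in 2 of 61 optimal and 22 of 229 other tRNA regions, against 23.1% of all optimal and 10.9% of all pooled regions. TTACNNAA was in 3 of 61 optimal and 13 of 229 other tRNA regions, against 5.35% of all optimal and 6.79% of all pooled regions. A window with either, called the degenerate C/EBP word after the bZIP factors that bind such words, was found for 8.20% of optimal and 15.3% of other tRNA regions, against 26.5% of all optimal and 16.7% of all pooled regions.

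The B box cores followed the genes. The regions were chosen beside tRNA genes, 64.5% of which hold GGTTCGA, so shares above those of all regions follow from that choice. GGTTCGA was in 14.8% of optimal and 17.9% of other tRNA windows, against 1.94% of all optimal and 0.980% of all pooled regions. The shorter GTTCGA, which it contains, was in 19.7% of optimal and 22.7% of other tRNA windows, against 4.34% of all optimal and 4.14% of all pooled regions. Within 100 bp of the summit the order turned, with GTTCGA in 57.4% of optimal and 53.3% of other tRNA windows. TTTT, the letters at which RNA polymerase III ends transcripts and which are common in AT-rich DNA, was in 62.3% of optimal and 81.7% of other tRNA windows, against 77.1% of all optimal and 85.5% of all pooled regions. Median GC content of these windows was 49.5% in optimal and 46.5% in other tRNA regions, against 46.5% in the whole optimal list and 38.6% in all pooled regions. Within the genes, GGTTCGA was in 63.2% of genes with an optimal region, 63.9% of those with another candidate region only and 65.2% of those with none. Absence of a word says only that these letters were not in the window.

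The 3 members nearest to the limit of 200 bp were at C29F4.t1 (200 bp, signal value 33.7), Y110A2AL.t2 (199 bp, 51.2) and K12H4.t1 (196 bp, 53.0). The 3 regions just outside were near T04F8.t1 (205 bp, 38.8), Y38E10A.t1 (206 bp, 39.1) and C40C9.t2 (206 bp, 27.5). None of the 6 was optimal, and a limit of 500 bp would have given 364 regions with 66 optimal.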

How the data were processed

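ChIP-seq libraries of 2 biological replicates were used as deposited by the authors, in the form of 4 region lists on assembly ce11: 1 for each replicate, 1 from the pooled reads, and the optimal list. Per the labels and the text deposited with the files, the lists of 30000 regions include background and are input for the irreproducible discovery rate (IDR) test, and the optimal list is what IDR kept. The signal value, the −log10 q-value and the summit offset of each region are the authors' own values. Not given in the sources used here: the aligner, the caller, the IDR threshold, the handling of reads that match several places, and the read depth, so the depth behind each value is unknown. Replicates share a control. 1 label field gives the antibody as zip-4 and the sample descriptions give GFP.

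tRNA genes were those of biotype tRNA in Ensembl release 115 (WBcel235). Amino acids and pseudogenes came from RefSeq on the same assembly, which matched all 612 nuclear genes and left 5 with no amino acid. Chromosome names and lengths were checked before coordinates were joined. Regions were matched to genes, replicate summits, repeated 36-base words and sequence words with Python 3.11.15, numpy 2.4.6, pandas 2.3.3 and scipy 1.17.1, and the figures were drawn with matplotlib 3.10.9. The steps were tested on simulated data. Shares have 95% Clopper-Pearson intervals, and no test between conditions was possible with 1 group. Genes named are the 10 strongest optimal and 5 strongest other members, those at the 200 bp limit, the clusters with most optimal members and with most genes and none, and the extremes of rank and signal. K11H12.t1, sup-5, C04A11.t1, F15G9.t1, M01E5.t1, the genes of the families and pairs and the 4 without a partner in replicate 2 were named after their values were seen. The members and lists were chosen with earlier results of these data known.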

Additional observations from a re-analysis of the deposited data

How the results depend on the processing

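Of 78 values recomputed under alternatives, 47 stayed within the 95% interval of the value reported, which is wide for small groups, and 31 fell outside it. Most alternatives changed 1 choice. Leaving out a replicate replaced the IDR list by the strongest regions of the other, and 1 alternative left out protein-coding promoters and other small RNA genes together. With the 645 strongest optimal regions only, the optimal share was 6.21% of tRNA regions, 3.76% of genes, 8.63% on X, 3.97% on autosomes and 4.72% at isolated genes. The list of 1 replicate alone gave 17.9% to 21.5% of tRNA regions, 8.01% to 11.3% of genes, 24.4% to 27.4% on X, 9.77% to 19.0% on autosomes, 15.7% to 20% at clustered and 18.8% to 22.1% at isolated genes. X stayed above the autosomes under the alternatives run. Partners in both replicates were found for 75.4% of optimal and 24.5% of other regions within 50 bp, for 98.4% and 52.0% within 200 bp, and for 50.8% and 0% among the strongest regions of each, as many as the optimal list holds. Unique words of 50 bases made up 84.9% in optimal and 87.5% in other regions, and those of 100 bases 100% in both. Within 25 bp of the summit, GTTCGA was in 9.84% of optimal and 16.2% of other windows, GGTTCGA in 8.20% and 13.5%, the degenerate C/EBP word in 1.64% and 5.68% (16.8% of all optimal and 8.39% of all pooled regions), and TTTT in 39.3% and 55.0%. Within 100 bp, GTTCGA was in 57.4% and 53.3%, GGTTCGA in 50.8% and 46.3%, the degenerate C/EBP word in 21.3% and 27.9% (39.2% of all optimal and 30.4% of all pooled regions), and TTTT in 90.2% and 96.9%. No paired analysis was possible because there was 1 group. Unknown depth and 2 replicates limit all shares.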

Other observations

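Both optimal regions at tRNA pseudogenes stood far from any tRNA gene. The one at T08B2.t1 had a signal value of 114.3 and rank 782, with the summit 2 bp before the pseudogene and 48630 bp from the nearest tRNA gene. The one at D1046.t1 had a signal value of 87.4 and rank 1131, with the summit 17 bp before the pseudogene and 73621 bp from the nearest tRNA gene. The strongest pseudogene regions outside the optimal list, at F19H8.t1 and Y43F8C.t3, had signal values of 54.6 and 53.9.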
